A study of Rattus norvegicus with 6 samples.

Results

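Myl7, Sln, Myl4, Nr2f2, Dkk3, Pam and Bmp10 are 7 genes known for their activity in the atrial chambers of the heart, and they were followed here on each of 6 whole-heart microarrays. They were selected on their signals on these same 6 arrays, after 2 AACO arrays had been seen to stand apart on atrial genes, so their levels are a description and carry no test. Every non-control probe with one of these gene names was taken, which gave 1 probe for each of the 7 genes. The detection limit asked for a signal well above background on 3 or more arrays, which 6 of the 7 genes met among 17536 genes in all. Bmp10 was above background on 1 array only.

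The arrays are single-colour Agilent arrays, on which RNA labelled with the dye Cy3 binds to printed probes and each spot's brightness is read. Of the 6 hearts, 3 came from animals given AACO solution at 0.386 µg/g, daily for 8 weeks, and 3 from control animals given as much double-distilled water. AACO is named in the series text as the treatment of a group called TCM, and its letters are not explained there. All animals of both groups were described as TAC animals, in heart research the usual short form of transverse aortic constriction, so no heart without TAC was compared. Hearts were taken from animals killed 24 h after their final dose. The series text speaks of mice, but every sample is labelled Rattus norvegicus and the probes are placed on the rat build rn4, so the hearts were taken as rat. Strain, sex and age are not given in the sources used here. The series text speaks of different donors for each experiment but the sample labels do not tie a sample to an animal, so a p-value here measures only how these samples spread, which may be technical. The label gives whole heart, and no chamber or dissection is named. The arrays are called AACO 1, 2 and 3 and control 1, 2 and 3, in accession order. The 3 AACO arrays lay on one slide and were scanned on one day, and the 3 control arrays on another slide and another day, so slide, scan day and treatment cannot be told apart.

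An adult heart keeps different contractile and signalling proteins in its atria and its ventricles. Atrial muscle uses its own pair of myosin light chains, encoded by Myl7 and Myl4, and in rodents its calcium pump is held by sarcolipin, encoded by Sln, where the ventricles use phospholamban. Nr2f2 encodes the nuclear receptor COUP-TFII, which in the mouse keeps atrial identity. Atrial muscle cells are also secretory, and Pam, Bmp10 and Dkk3 encode an enzyme of their granules and secreted proteins. RNA of a whole heart mixes all chambers, so fewer cells of a type and less RNA per cell cannot be told apart in these values.

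What each value reads is a probe of 60 bases. In the array's own annotation on rn4, the Myl7 probe lies at chr14:86568278-86568683 on the minus strand, spread over 406 bases of genome, and the Sln probe at chr8:57318467-57318526 on the plus strand. The Nr2f2 probe lies at chr1:125280995-125281054 and the Dkk3 probe at chr1:169924663-169924722, both on the minus strand. The Pam probe lies at chr9:96977460-96977519 and the Bmp10 probe at chr4:121601719-121601778, both on the plus strand, and the Myl4 probe has no genome position there. Exon, intron and UTR were not assigned, since no annotation of rn4 was used here. The sequences of 4 probes are printed because they carry the contrast among these genes, Myl7 and Bmp10 for their high signal on single arrays, Myl4 as the light chain that stayed level and Pam as the gene that was lower with AACO. No base is in capitals, because the whole probe is the measured site.
Myl7: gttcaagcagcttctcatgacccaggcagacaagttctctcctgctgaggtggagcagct
Myl4: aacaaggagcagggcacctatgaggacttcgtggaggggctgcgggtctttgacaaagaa
Pam: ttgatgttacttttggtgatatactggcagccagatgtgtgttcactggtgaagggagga
Bmp10: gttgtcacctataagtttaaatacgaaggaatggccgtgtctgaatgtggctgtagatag
Against the probes of every other gene on the array, aligned without gaps, the best match to any of the 7 probes held 31 to 33 of its 60 bases. No probe of another gene printed on the array was therefore a near copy of one of them. Whole transcripts were not compared, so whether a probe also binds RNA of a related gene was not tested.

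Values are given first as the background-corrected signal of the scanner, in intensity units, and then on a log2 scale on which 0 is the 75th percentile of that array's spots, so that arrays of different brightness can be set side by side. A difference of 1 on that scale is a factor of 2 in signal. No spot of the 7 genes was saturated or marked as an outlier. Differences between groups are AACO minus control, with the standard error (SE) of the fit over all genes.

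Myl7, the regulatory light chain of atrial myosin, was the gene on which the arrays differed most. Its signal was 48132 on AACO 1, 165885 on AACO 2 and 1023 on AACO 3, against 353, 160.3 and 472 on control 1, 2 and 3. AACO 1 and AACO 2 were high and AACO 3 lay just above the controls, so the groups did not overlap although the AACO arrays alone spanned 7.33 on the log2 scale. On the scaled log2 axis the 3 AACO values were 4.83, 6.26 and -1.06, against -2.31, -2.91 and -1.51 in controls. Set against the control mean, AACO 1 was 135-fold, AACO 2 364-fold and AACO 3 2.27-fold higher. The lowest AACO array exceeded the highest control array by 0.44, which is less than the spread of 1.41 between the controls themselves. Means were 3.34 ± 3.88 with AACO and -2.25 ± 0.71 in controls (SD, n = 3 each), a difference of 5.59 ± 1.80 (SE). The highest array exceeded the lowest 579-fold, the widest spread of all 17536 genes tested.

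Sln, which encodes the calcium pump inhibitor sarcolipin, had the same order of AACO arrays over a smaller span. Its signal was 4439, 31097 and 1612 on the AACO arrays, against 539, 903 and 894 on the control arrays. AACO 2 was the highest, AACO 1 came next, and AACO 3 was level with control 2 once scaled. The scaled log2 values were 1.39, 3.85 and -0.41 with AACO, against -1.71, -0.42 and -0.59 in controls. The groups did not overlap, but the margin between AACO 3 and control 2 was 0.012, far below the spread within either group. AACO 1 stood 4.91-fold, AACO 2 26.9-fold and AACO 3 1.41-fold above the control mean. The means were 1.61 ± 2.14 with AACO and -0.90 ± 0.70 in controls (SD, n = 3 each), and the difference was 2.51 ± 1.03 (SE). By spread over the arrays, Sln ranked 11 of the 17536 genes, with its highest array 46.9-fold above its lowest.

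Myl4, the essential light chain that pairs with atrial myosin and is also made in the fetal ventricle, did not share this pattern. Its signal was 192888, 234193 and 238457 on the AACO arrays, against 199019, 148528 and 133189 on the control arrays. After scaling, all 6 arrays lay close together, at 6.83, 6.76 and 6.80 with AACO and 6.82, 6.94 and 6.63 in controls, and the groups overlapped. The means were 6.80 ± 0.036 with AACO and 6.80 ± 0.156 in controls (SD, n = 3 each). The difference of -0.002 ± 0.11 (SE) was smaller than the spread between replicates. The probes of the 2 atrial light chains thus differed in behaviour, since the highest array of Myl4 was 1.24-fold above its lowest and that of Myl7 579-fold. Myl4 was read by 1 spot on each array, from a probe without a genome position. Whether that probe also binds RNA of other light chains was not tested.

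**Figure D1:**
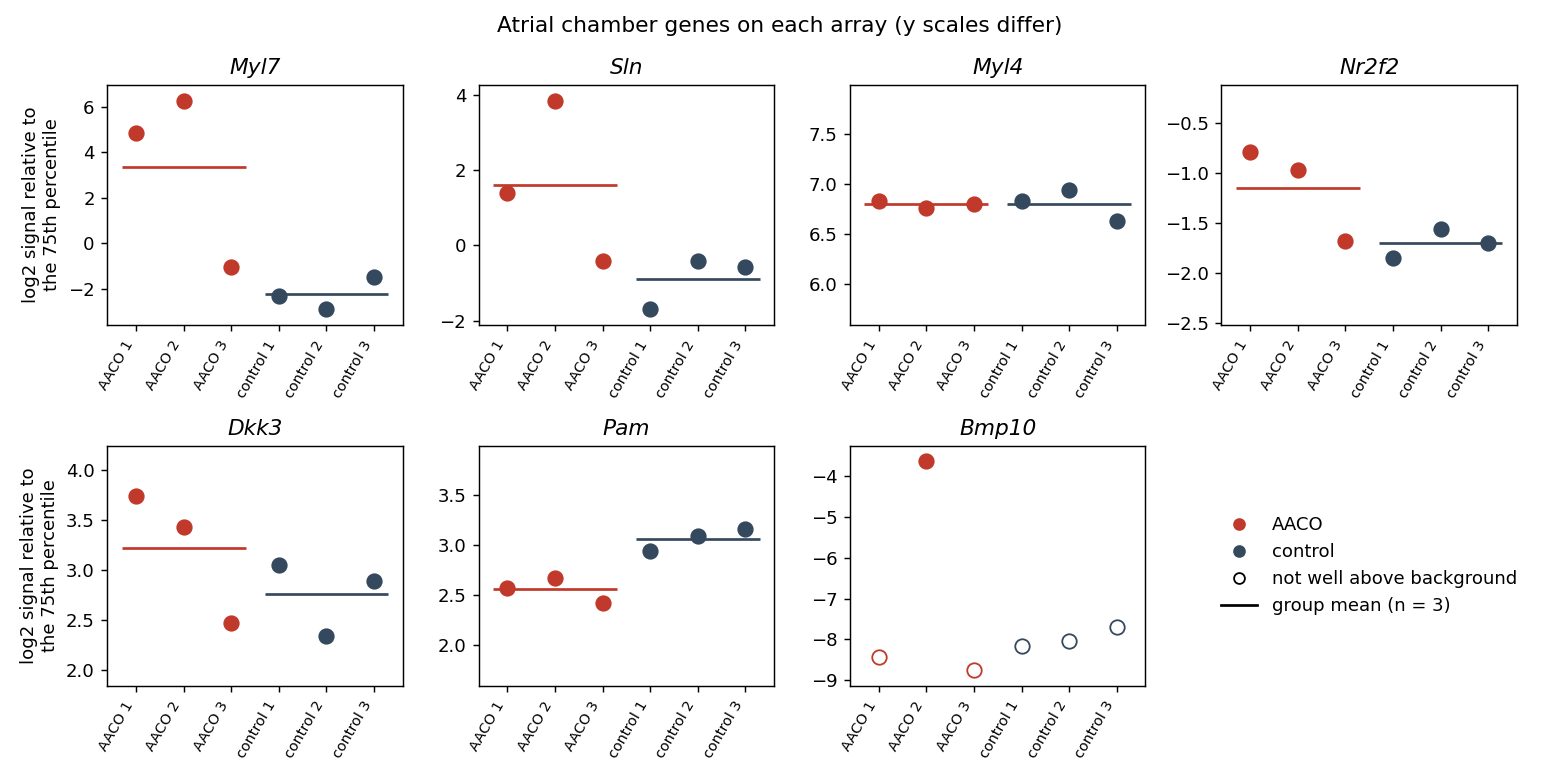
The scaled log2 signal of each gene (vertical axis, 0 at the array's 75th percentile, with a scale of its own in each panel) on the 3 AACO arrays and the 3 control arrays. Filled points are well above background, open points are not, and a line is the mean of a group measured on all its arrays. Myl7 reaches 4.83 and 6.26 on AACO 1 and 2, Myl4 stays between 6.63 and 6.94 on all arrays, Pam is lower on every AACO array, and Bmp10 has a filled point on AACO 2 only.

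Nr2f2, the nuclear receptor, had signals of 977, 1102 and 668 on the AACO arrays, against 486, 410.02 and 413 on the control arrays. Scaled values were -0.79, -0.97 and -1.68 with AACO, against -1.85, -1.56 and -1.70 in controls. AACO 1 and AACO 2 were the highest of the 6 arrays, at 1.88-fold and 1.66-fold the control mean, while AACO 3 was at 1.02-fold and lay among the controls. The difference between the group means of -1.15 ± 0.47 and -1.70 ± 0.15 (AACO and control, SD, n = 3 each) was 0.56 ± 0.24 (SE).

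Dkk3 encodes a secreted glycoprotein of the Dickkopf family. Its signals were 22633, 23316 and 11862 on the AACO arrays and 14549, 6112 and 9902 on the control arrays. AACO 1 and 2 were again the highest arrays, but control 1 lay closer to them than AACO 3 did. Scaled values were 3.74, 3.43 and 2.47 with AACO, against 3.05, 2.34 and 2.88 in controls. The means, 3.21 ± 0.66 with AACO and 2.76 ± 0.37 in controls (SD, n = 3 each), differed by 0.46 ± 0.36 (SE), and the groups overlapped.

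Pam encodes the enzyme that amidates peptide hormones and is a major membrane protein of atrial granules in the rat. It was the one gene of the set with lower values on all 3 AACO arrays. Its unscaled signals were 10045, 13760.2 and 11460 with AACO, against 13454, 10288 and 11977 in controls, and overlapped. After scaling, the values were 2.57, 2.67 and 2.42 with AACO, against 2.94, 3.09 and 3.16 in controls. The groups no longer overlapped, with the highest AACO array 0.27 below the lowest control. Means were 2.55 ± 0.13 with AACO and 3.06 ± 0.11 in controls (SD, n = 3 each), a difference of -0.51 ± 0.11 (SE), or 1.42-fold lower. Without scaling between arrays the difference was -0.022, where the median over all genes lay at 0.52.

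Bmp10 encodes a growth factor of the BMP family that the adult mouse heart makes in the right atrium. Its signal was 4.88, 173 and 4.95 on the AACO arrays, against 6.15, 4.61 and 6.46 on the control arrays. It was well above background on AACO 2 only, where both of its spots were, at 163.8 and 183.8, and on 0 of 3 control arrays. The other values are bounds and have no order. AACO 2 stood at least 9.596-fold above the detection floor of the control arrays, at least 12.9-fold above that of AACO 1 and at least 15.7-fold above that of AACO 3, where the floor is the lowest signal among probes well above background. No fold between the groups is given, since the bound on it was under 1.

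These 7 genes therefore did not move as one. Myl7, Sln, Nr2f2 and Dkk3 each had AACO 1 and AACO 2 as their highest arrays, in differing order. Bmp10 was measured on AACO 2 alone, Myl4 was level on all arrays, and Pam was lower with AACO. Of the 6 genes tested, 1, Pam, passed the test by limma at an adjusted p of 0.05, and 11.3% of all genes tested passed it in either direction, 6.32% higher and 4.94% lower. The groups did not overlap for 3 of the 6, Myl7 and Sln higher and Pam lower, beside 37.4% of all genes tested, of which 21.5% of all genes were higher and 15.9% lower. Nothing is read from these counts, because the choice of genes used the same arrays.

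**Figure D2:**
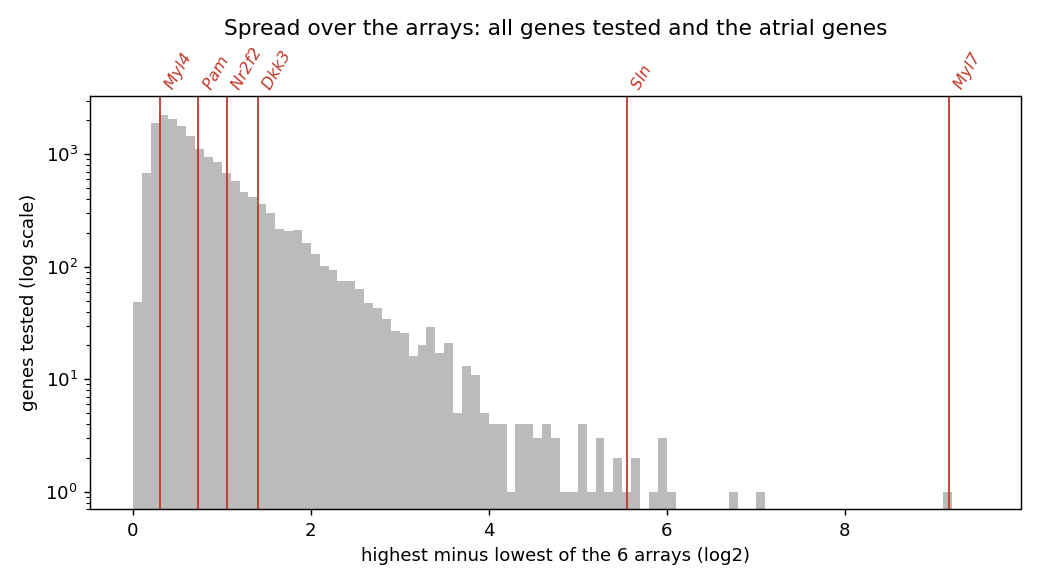
The spread over the 6 arrays, highest minus lowest scaled log2 signal (horizontal axis), for all 17536 genes tested (grey bars, number of genes on a log axis), with the atrial genes as red lines. Myl7 lies at 9.18, beyond every other gene, and Sln at 5.55, while Myl4, Pam, Nr2f2 and Dkk3 lie between 0.31 and 1.40.

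The size of the differences depended on which arrays were kept. Leaving out 1 array at a time moved the difference of Myl7 between 4.13 and 7.79, and that of Sln between 1.40 and 3.52. With AACO 1 and AACO 2 both left out, AACO 3 alone stood 1.18 above the controls for Myl7 and 0.50 for Sln, where the lone array was assumed to vary like the controls. Nr2f2 came to 0.024 and Dkk3 to -0.29 in that case. The difference of Pam was negative in each of these fits, between -0.57 and -0.44 with 1 array left out and -0.64 without both, and that of Myl4 stayed between -0.09 and 0.07 with 1 array left out.

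**Figure D3:**
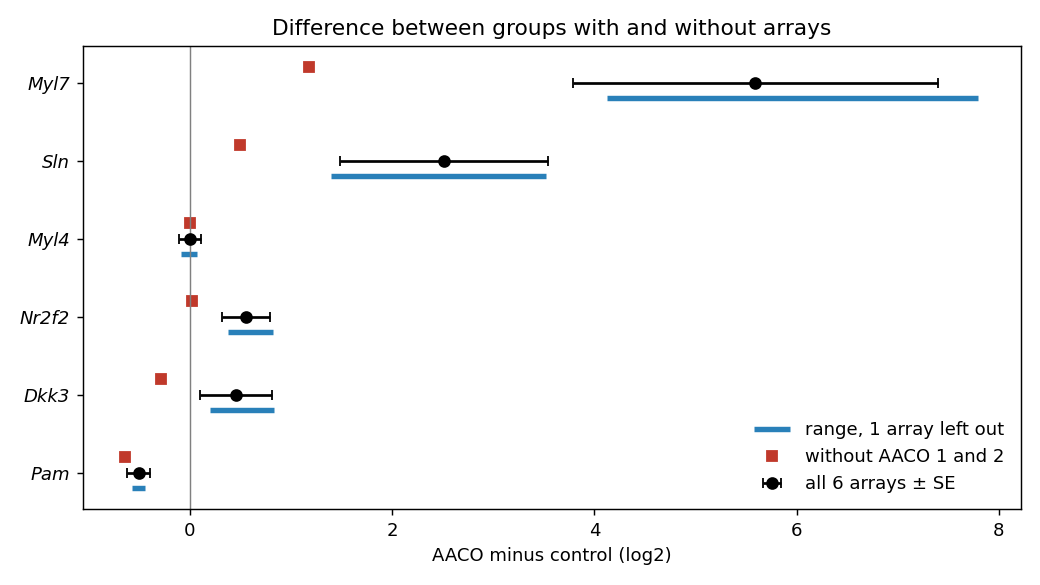
The difference AACO minus control in scaled log2 signal (horizontal axis) for each gene with all 6 arrays (black points, bars are SE), its range when 1 array at a time is left out (blue bars), and its value with AACO 1 and 2 both left out (red squares). Myl7 moves from 5.59 to 1.18 and Sln from 2.51 to 0.50 when both arrays are left out, while Pam moves from -0.51 to -0.64.

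A wider list of 17 genes tied to the atria put these members beside other atrial genes, of which 14 could be tested. The list covers atrial ion channels and receptors, transcription factors, a hormone and muscle proteins. With AACO treatment, 3 of the 14 rose (21.4%, where 6.32% of all genes tested rose) and 0 fell by limma, and at an unadjusted p of 0.05 the counts were 5 higher and 0 lower. The list's median difference was 0.54, where that of all genes tested was 0.04, and 10 were higher and 4 lower. With any 1 of the other 5 arrays left out, 0 of the 14 passed, and without AACO 3 there were 5. This list and the lists below were chosen with earlier results of these data known, so nothing is read from their counts.

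The 3 that passed are parts of the muscarinic potassium current that slows the atria. Chrm2, the M2 muscarinic receptor, had scaled values of -0.85, -1.35 and -1.62 with AACO, against -2.54, -2.42 and -2.25 in controls. Its difference was 1.13 ± 0.21 (SE, limma adjusted p = 0.0261), and its other tested probe differed by 0.975. Kcnj5, a subunit of the channel this receptor opens, rose by 0.75 ± 0.18 (adjusted p = 0.0475 by limma), at 2.08, 1.87 and 1.52 with AACO and 0.87, 1.1001 and 1.26 in controls. Kcnj3, the other subunit, rose by 0.50 ± 0.11 (limma adjusted p = 0.0364), at -0.37, -0.29 and -0.53 with AACO and -0.97, -0.81 and -0.91 in controls. All 3 genes were higher on every AACO array than on any control array, AACO 3 included, as were 21.5% of all genes tested. Myl7 and Sln were separated in the same way, by margins of 0.44 and 0.012. Nr2f2 and Dkk3 on AACO 3 lay within the range of the controls. Of the 14 alternative settings, the call was lost in 6 for Chrm2, in 10 for Kcnj5 and in 8 for Kcnj3. The adjusted p from limma was lowest without scaling between arrays, where the median over all genes lay at 0.52. There it was 4.31e-05 for Chrm2, 0.00084 for Kcnj5 and 0.0064 for Kcnj3. Without AACO 2 it was 0.0885, 0.147 and 0.124 in that order.

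Other atrial genes also had AACO 1 and AACO 2 as their highest arrays without passing. Mybphl, a myosin-binding protein of mouse atria, had scaled values of -2.51, -0.12 and -5.77 with AACO, against -5.73, -5.08 and -5.36 in controls, with a difference of 2.59 ± 1.31 (SE, limma adjusted p = 0.233). Sbk2, a kinase gene, lay at -2.98, -1.51 and -4.26 with AACO, against -4.37, -5.33 and -4.24 in controls (difference 1.73 ± 0.69, limma adjusted p = 0.149). On both, AACO 1 and AACO 2 were the highest arrays and AACO 3 lay within or below the controls. Angpt1, a vessel growth factor, was 0.57, -0.75 and -1.66 with AACO and -2.46, -3.13 and -2.87 in controls. Its groups did not overlap, and its difference of 2.21 ± 0.54 just missed the threshold (limma adjusted p = 0.0503). Nr2f1, a relative of Nr2f2, lay at -4.59, -4.21 and -5.00 with AACO, against -5.26, -5.38 and -4.85 in controls (difference 0.56, limma adjusted p = 0.167), with AACO 3 among the controls. Hamp, which encodes the iron hormone hepcidin, did not have this pattern and was high on AACO 2 alone, with 0.25, 3.17 and -1.83 on the AACO arrays against -0.24, -0.90 and 0.96 on the control arrays (adjusted p = 0.776 by limma).

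Nppa and other atrial genes had further patterns. Nppa encodes atrial natriuretic peptide, the hormone of atrial granules that stressed ventricles also make. It had scaled values of 2.80, 5.49 and 5.86 with AACO, against 4.95, 5.25 and 6.99 in controls, so that AACO 1, one of the arrays highest in Myl7, was the lowest of all 6. Its difference was -1.01 ± 0.92 (SE, limma adjusted p = 0.489). Kcna5, an atrial potassium channel, differed by -0.63 (adjusted p = 0.19), Hey1, an atrial transcription factor, by -0.52 (adjusted p = 0.317) and Gja5, a gap junction protein of atria and conduction fibres, by -0.13 (adjusted p = 0.843), all by limma. Tbx5 and Stard10 differed by 0.02 and 0.51 (limma adjusted p = 0.96 and 0.239).

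A list of 12 ventricular genes shows what the other chamber did on the same arrays, and 11 were tested. With AACO treatment, 3 of the 11 passed as higher by limma (27.3%, where 6.32% of all genes tested rose), or 2 apart from Kcnj2. By the same test 0 fell, where 4.94% of all genes tested fell. At an unadjusted p of 0.05, 3 were higher and 0 lower. The median difference was 0.18, where that of all genes tested was 0.04. Hey2, a repressor of the ventricular wall, rose by 1.22 ± 0.19 (SE, limma adjusted p = 0.0165), at -0.85, -0.38 and -0.86 with AACO and -2.01, -1.64 and -2.11 in controls. Irx4, a ventricular transcription factor, rose by 0.99 ± 0.20 (limma adjusted p = 0.033), at 1.75, 1.38 and 1.08 with AACO and 0.66, 0.37 and 0.20 in controls. Both were higher on all 3 AACO arrays than on any control, so genes of either chamber were among those that rose. Kcnj2, a potassium channel that sets the resting potential, reached the detection limit on 0 of 3 control arrays and was at least 1.72-fold higher with AACO (limma adjusted p = 0.0377). It entered the fit only through the AACO arrays, where it was high, and its sign turned with normexp background correction, to -0.154, so its call is not counted as support. Of the 14 alternative settings, the call was lost in 4 for Hey2 and in 5 for Irx4. The adjusted p from limma was lowest without scaling between arrays, at 3.33e-05 for Hey2 and 0.00022 for Irx4. Without AACO 2 it was 0.0596 and 0.109 in that order. Without AACO 1, without AACO 2 and without control 3 the count of ventricular genes that rose was 0, without control 2 it was 1, without AACO 3 it was 2 and without control 1 it was 3.

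The ventricular light chains were level where Myl7 was not. Myl2, the ventricular counterpart of Myl7, had scaled values of 7.22, 7.04 and 7.20 with AACO, against 7.11, 7.42 and 7.32 in controls (difference -0.13, limma adjusted p = 0.484). Myl3, the counterpart of Myl4, differed by 0.18 (adjusted p = 0.501) and Myh7, the slow myosin heavy chain, by 0.05 (limma adjusted p = 0.865). Pln, Lrrc10 and Kcnip2 differed by -0.04, 0.18 and -0.37 (limma adjusted p = 0.918, 0.231 and 0.179). Irx3 and Irx5 spread widely over single arrays, Irx5 at 1.46, -0.79 and -0.40 with AACO and 0.27, -3.23 and 0.21 in controls, and neither passed (limma adjusted p = 0.474 and 0.558).

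**Figure D4:**
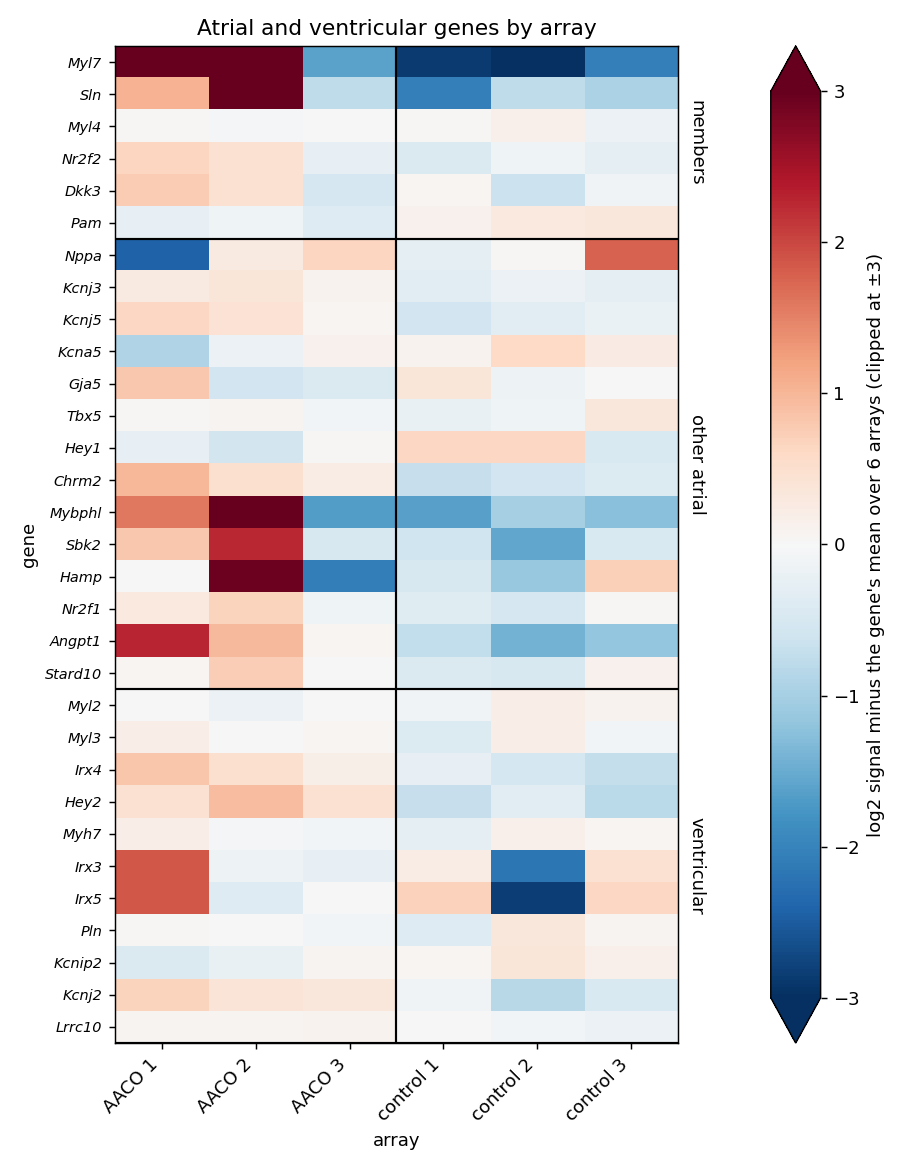
Scaled log2 signal minus the gene's mean over the 6 arrays (colour, clipped at 3 in either direction) for the 6 members tested, the 14 other atrial genes and the 11 ventricular genes (rows), on the AACO arrays and then the control arrays (columns). Myl7, Sln, Mybphl and Sbk2 are red on AACO 1 and 2, Nppa is blue on AACO 1, and Myl4, Myl2 and Myh7 are near white throughout.

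Around each member, the genes of its pathway were counted. Sln acts on the calcium pump, and of 5 genes of the pump and its small regulators 3 were tested. None of the 3 passed by limma, with 1 higher and 0 lower at an unadjusted p of 0.05. Atp2a2, the calcium pump of the heart, differed by 0.36 (adjusted p = 0.455 by limma), its other tested probe by -0.0831, and Atp2a1, the pump of fast skeletal muscle, by 0.48 (limma adjusted p = 0.0799). Sln was thus far apart on AACO 1 and 2 while its target Atp2a2 lay at 6.41, 6.46 and 6.36 with AACO, against 5.37, 6.61 and 6.18 in controls.

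BMP10 binds the receptor ALK1, encoded by Acvrl1, with endoglin, and signals through SMAD proteins to the Id genes. Of 13 genes of that route 11 were tested, and 2 rose (18.2%), Id2 and Id3, and 0 fell by limma. Apart from Id3, which is set aside below, Id2 alone rose. Of all genes tested, 6.32% rose and 4.94% fell. The median difference of the list was -0.11, where that of all genes tested was 0.04. Id3, a target of the pathway, had scaled values of -4.19, -3.62 and -3.95 with AACO, against -7.16, -5.92 and -6.61 in controls, where it was above background on 1 of 3 arrays. It rose, by 2.64 ± 0.32 (SE, limma adjusted p = 0.0104). That size rests on controls mostly below background and was 0.75 with normexp background correction. Id3 met the limit of 3 arrays only through the AACO arrays, where it was high, so nothing is drawn from its p. Id2, another target, rose by 0.70 ± 0.12 (limma adjusted p = 0.0218), at -0.04, -0.13 and -0.41 with AACO and -0.94, -0.88 and -0.87 in controls. Both were higher on all 3 AACO arrays, and Bmp10 itself was measured on AACO 2 only. Of the alternative settings, the call was lost in 2 of 13 for Id3 and in 5 of 14 for Id2. The adjusted p from limma was lowest without scaling between arrays, at 3.71e-09 for Id3 and 0.0013 for Id2. Without AACO 2 it was 0.0525 and 0.0885 in that order. Id2 and Id3 are also targets of other BMP ligands. Id1, the remaining Id gene of the list, went the other way and did not pass, at -0.59 ± 0.27 (SE, limma adjusted p = 0.1995). The receptor genes Eng, Acvrl1 and Bmpr2 had differences of -0.45, -0.27 and -0.28 and did not pass (limma adjusted p = 0.0629, 0.114 and 0.119).

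Pam amidates the ends of peptides, and 6 of 8 genes of peptides it is known to act on were tested. By limma 1 rose, Vip, and 1 fell, Adm, where 6.32% of all genes tested rose and 4.94% fell. The median difference of the list was -0.006, where that of all genes tested was 0.04. Adm, the vessel-relaxing hormone adrenomedullin, fell by 1.47 ± 0.14 on the log2 scale (limma adjusted p = 0.00719), at 1.48, 1.57 and 1.87 with AACO and 3.04, 3.29 and 3.0001 in controls. Vip, a nerve peptide, was at least 2.09-fold higher with AACO (adjusted p = 0.0301 by limma), reached the detection limit on 0 of 3 control arrays, and turned to -0.154 with normexp background correction. It too entered the fit only through the AACO arrays, and nothing is drawn from its p. Pam and Adm were both lower on every AACO array than on any control array, as were 15.9% of all genes tested. Of 6 relatives and receptors of Dkk3, 1 could be tested, and this one, Dkkl1, fell by 0.88 on the log2 scale (SE 0.19, limma adjusted p = 0.0384), at -2.73, -2.83 and -2.26 with AACO and -1.98, -1.69 and -1.53 in controls. Its call was lost in 7 of 14 alternatives by limma, with adjusted p = 0.127 without AACO 1, 0.126 without AACO 2, 0.0857 without control 2, 0.105 without control 3, 0.445 without AACO 1 and 2, 0.0509 with no filter on dim probes and 0.237 without scaling, where the difference was -0.39.

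The genes whose pattern over the 6 arrays lay nearest to that of a member were found by the root mean square difference between centred log2 values, for the 4 members whose arrays spanned at least 1. For Myl7 they were Rab15, a small GTPase of membrane recycling, at 1.16, then Mybphl at 1.76 and Fos at 2.05, where the median over all genes was 3.59. Rab15 had -0.60, -0.76 and -7.16 on the AACO arrays, against -5.85, -7.30 and -5.99 on the control arrays, so it was high on AACO 1 and 2 and not on AACO 3, and 3 of its 6 values were above background. For Sln the nearest was again Mybphl, at 0.531, then Gdf10 at 0.712 and the chemokine gene Cxcl13 at 0.774, with a median of 1.80. Gdf10 was above background on 0 of 3 control arrays, so its place rests partly on values below detection. The atrial gene Mybphl was among the 3 nearest of both members that spread most, and itself ranked 9 of 17536 genes by spread. Centred values were not scaled, so genes that spread little cannot come near these members. Around Nr2f2 lay E4f1, Zfp90 and Lrrc30, at 0.0305 to 0.0601 where the median was 0.430, with Zfp90 above background on 1 and Lrrc30 on 0 of 3 control arrays, and around Dkk3 lay Fscn2, Klhl13 and Gnmt, at 0.115 to 0.134 where it was 0.531. Each is a likeness over 6 arrays among 17536 genes, and near values are easily found for members that spread little.

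Markers of tissues that a whole heart can hold in varying amounts were read on the same arrays, and their part in the results above was not tested. Their counts of calls stand beside 6.32% of all genes tested that rose and 4.94% that fell. The genes of nerve and Schwann cells, which reach the heart mainly through its base and atria, were highest on AACO 1 and 2. All 6 were tested and 1 rose, Sox10, by 1.52 ± 0.35 (SE, limma adjusted p = 0.0451), and their summed linear scaled signal was 1.86 to 5.51 with AACO and 1.01 to 1.76 in controls. The mean of the list, centred on each gene, was 0.88, 0.73 and 0.02 with AACO, against -0.50, -0.15 and -0.98 in controls.

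The sinus node list had 4 of 7 genes tested and 0 passed by limma, with 1 higher and 0 lower at an unadjusted p of 0.05. Its centred mean was 0.91, 0.36 and -0.28 with AACO, against -0.10, -0.45 and -0.45 in controls, with sums of 0.824 to 1.93 with AACO and 0.757 to 1.05 in controls. Its defining factor Isl1 was not above background on any array, and Hcn4, the pacemaker channel, was highest on AACO 1. Vsnl1, a calcium sensor of the list, did not overlap between groups and just missed the threshold, at -1.24, -0.70 and -2.34 with AACO and -3.99, -2.86 and -5.01 in controls (difference 2.53 ± 0.63, limma adjusted p = 0.0515), and Tbx3 differed by -0.17 (adjusted p = 0.522). Genes of great vessel smooth muscle summed to 5.78 to 8.35 with AACO and 4.66 to 5.89 in controls, AACO 1 highest, with Lmod1 up by 0.60 (adjusted p = 0.049 by limma) and the elastin gene Eln down, at -0.79 (adjusted p = 0.00922 by limma). Of the skeletal muscle list 6 of 10 were tested and 1 passed, Myh4, which entered the fit only through the AACO arrays (0 of 3 controls above background) and supports no call, while Myh1 and the defining factor Myod1 were not above background on any array, and the sums were 101 to 115 with AACO and 89.1 to 110.2 in controls. Of the adipocyte list 3 of 5 were tested, 0 rose and 1 fell, with a median of -0.66. Fabp4, a fatty acid carrier, fell by 0.66 on the log2 scale (limma adjusted p = 0.0464) and was lower on every AACO array than on any control, Cfd differed by -0.97 (adjusted p = 0.115), and Adipoq, above background on 2 AACO and 1 control arrays, was high on AACO 2 only, at -7.43, -2.97 and -7.42 with AACO, against -7.23, -7.76 and -6.36 in controls, while Plin1 and Ucp1 were not above background on any array.

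The 5 ventricular muscle markers summed to 433 to 505 with AACO and 380 to 519 in controls, which overlapped. These sums are made up almost wholly of Myl2, Myl3 and Myh7. Of the 5 markers, 2 rose by limma (40%), Hey2 and Irx4, and 0 fell. Of the epicardial list 2 of 6 were tested, and Upk3b and Lrrn4 were not above background on any array. None of the 6 endothelial markers passed by limma, with 0 higher and 2 lower at an unadjusted p of 0.05. All 4 macrophage markers fell, with a median of -1.58, where 4.94% of all genes tested fell. Of the lymphatic list Lyve1 fell by 1.33 on the log2 scale (limma adjusted p = 0.0345), the only one of 4 to pass. Across whole arrays, the share of spots well above background was 71.8% ± 0.781 with AACO and 67.5% ± 1.37 in controls (SD, n = 3 each). That difference has an exact two-sided permutation p of 0.1, the smallest that 3 arrays against 3 can give.

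**Figure D5:**
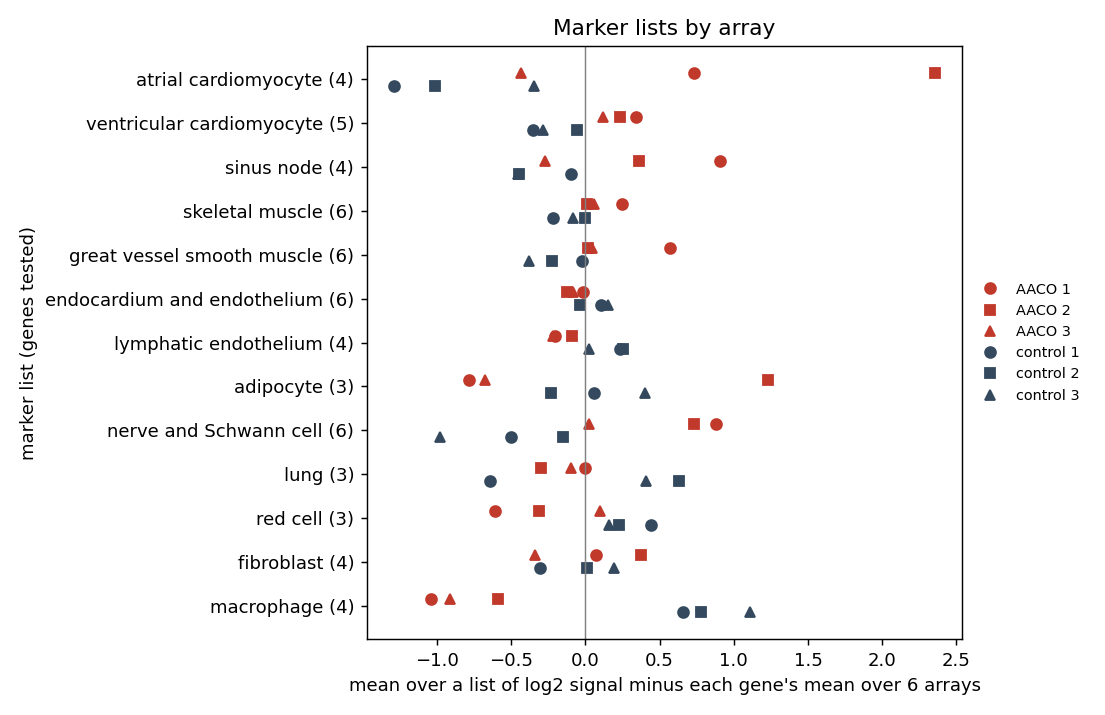
The mean over each marker list of the scaled log2 signal minus each gene's mean over the 6 arrays (horizontal axis), with the number of genes tested in brackets and 1 point for each AACO array (red) and control array (dark blue). AACO 2 and AACO 1 lie furthest right for the atrial list, which includes Myl7 and Sln, and for the nerve and Schwann cell list, and the macrophage list is lower on all 3 AACO arrays.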

How the data were processed

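RNA of 6 rat hearts (3 AACO, 3 control) was read on single-colour Agilent arrays. Per the file headers, the deposited intensity of a spot is the processed signal of Agilent Feature Extraction 10.7.1.1, corrected for background, with no scaling across arrays. A deposited value table of the series gives the 6 arrays as log2 values with a common median of 6.77, by a normalization that is not stated, and served as an alternative.

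Control spots and spots marked as outliers were left out, spots of a probe were averaged, and each array's 75th percentile over non-control spots was subtracted on the log2 scale. Of 30367 non-control probes, 20112 met the detection limit (well above background on 3 or more arrays). The brightest probe stood for a gene, which gave 17536 genes, tested together with limma 3.58.1 in R 4.3.3 (lmFit and eBayes, no covariates) with Benjamini-Hochberg adjustment at 0.05. The fit was tested on simulated data. Symbols came from RefSeq (assembly GRCr8) for the 18005 probes matched through accessions, and from the array for the others. The number of arrays, 3 in a group, limits the precision.

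Members, gene lists and tests were chosen with earlier results of these data known. The rule for named genes took all members, from each pathway list those passing the test (at most 3, or the 2 with the smallest adjusted p where none passed), every tested gene of the other atrial and the ventricular list, and the 3 genes nearest to each member whose arrays spanned at least 1. Marker genes, Id1 and the receptors Eng, Acvrl1 and Bmpr2 were named besides, after their values were seen. Alternatives covered background correction, scaling, the filter on dim probes, the choice of probe, the series matrix and left-out arrays.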

Additional observations from a re-analysis of the deposited data

How the results depend on the processing

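No paired analysis was possible because the array titles share no replicate numbers between the groups, and slide and scan day could not enter the fit because each slide holds 1 group. Over all 17536 genes, 1108 rose and 867 fell. The counts were 774 and 1529 with normexp background correction, 991 and 1004 after quantile normalization, 5493 and 232 without scaling between arrays (where the median of all genes lay at 0.52), 986 and 1001 in the series matrix, 776 and 1401 with no filter on dim probes. The share of calls that rose was 56.1%, against 33.6% with normexp, 35.6% with no filter, 95.9% without scaling and 49.7% after quantile normalization. With 1 array left out, 108 to 1225 rose and 148 to 937 fell, the fewest without AACO 2 (108 and 148), with 179 and 227 without AACO 1 and 322 and 304 without control 3. Without AACO 1 and 2 together, 0 and 0 passed in limma, and 2216 had an unadjusted p under 0.05. Of the other atrial genes 3 rose, 8 without scaling, 1 with no filter, 0 without AACO 1 and 2, and 0 to 5 with 1 array left out, and 0 fell under any of the 14 alternatives. Of the ventricular genes 3 rose, 6 without scaling, 0 without AACO 1 and 2, and 0 to 3 with 1 array left out. Without AACO 1 and 2 the difference was 1.18 for Myl7, 0.50 for Sln, 0.024 for Nr2f2, -0.29 for Dkk3 and -0.64 for Pam. With 1 array left out it lay between 4.13 and 7.79, 1.40 and 3.52, 0.38 and 0.82, 0.19 and 0.83, and -0.57 and -0.44 in that order, and between -0.09 and 0.07 for Myl4. Myl4 came to 0.16 with normexp and 0.48 without scaling, Nr2f2 to 1.04 and Pam to -0.022 without scaling. Kcnj2 and Vip turned to -0.154 each with normexp, and the cause was not tested. Bmp10, below background on 5 of 6 arrays, is limited by its signal over background.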

Other observations

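The values below were looked up after the data were seen, as the 5 named genes that stood highest on a single array above all the other 5, and carry no test. On AACO 1 these were cartilage genes for the most part, with Chad 4.70 above the next array (log2), Col2a1 2.14, Comp 2.13 and Ucma 1.98, beside Myl1 at 2.02, an alkali light chain of skeletal muscle. On AACO 2 they were Adipoq, the fat hormone adiponectin, at 3.39, then Sln at 2.46, Mybphl at 2.39, Hamp at 2.22 and Cd209g at 1.91. On AACO 3, 3 genes stood more than 1 above all other arrays, with Hist1h3f at 1.40, against 33 on AACO 1 and 24 on AACO 2, and 22, 24 and 25 on control 1, 2 and 3. On control 1 the homeobox gene Irx2 stood at 2.39.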
